A study of Mus musculus with 6 samples.

Results

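The genes described here are 34 neuroectoderm and neuronal genes, chosen by name: neural progenitor markers, transcription factors of the early neural plate, proneural factors, neuronal cytoskeleton proteins, adhesion and growth cone proteins, and synaptic proteins. Their signals were taken from all probe sets that the platform annotation lists with 1 of these genes alone, by current or older symbol. This gave 46 of the 12488 probe sets and 31 genes, of 8251 genes named on the array. Otx1, Otx2 and Tubb2b have no such probe set and are not analysed here.

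The arrays hold RNA of embryonic stem cells of the mouse, which can form all tissues of the embryo, taken while the cultures were growing exponentially. Wild-type cells were set beside 2 lines that lack the linker histones H1c, H1d and H1e (now H1f2, H1f3 and H1f4), chromatin proteins that sit on the nucleosome and the DNA between nucleosomes. Each line was measured on 2 arrays, labelled experiment 1 and experiment 2, so there are 2 wild-type and 4 null arrays. The labels give no strain, passage, feeder layer or clone history for any line. Nor do they state that both arrays of a line stem from independent cultures, and the p-values therefore refer to the spread among arrays, possibly a technical one. The null lines share the same 3 inactivated genes, and both are compared with the same 2 wild-type arrays.

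The deposited values are linear intensities, for which the submitters' processing notes name MAS5. The trimmed mean of every array lay between 100.05 and 100.06, and the median between 34.1 and 39.5. Log2 signals of arrays of 1 line correlated with r between 0.975 and 0.977, a description over probe sets and not over replicates. The probe set of the targeted H1f2 read 70.0 and 68.2 in wild-type cells and between 11.1 and 14.4 in null cells. Those of H1f3 and H1f4 were at or below background on all 6 arrays and check nothing. Of 12 markers of embryonic stem cells, Pou5f1, Nanog and Sox2 among them, all 12 were above background on every array, against 67.8% of all genes. Their summed signals were 5958 and 6100 in wild-type cells and 6383 to 7063 in null cells, higher on every null array. In the average of the null lines 8 of them had positive and 4 negative changes. At an unadjusted p under 0.05 (limma) 5 were higher and 0 lower, against 5.53% and 7.16% of all probe sets tested. After adjustment 1 of the 12 passed in that average, against 0.416% of all (limma adjusted p = 0.0465). This was Fbxo15, at 170.2 and 155.6 in wild-type and 301.0 to 375.4 in null cells. In line 1 and line 2 alone it did not pass (limma adjusted p = 0.102 and 0.0791). Of 7 glial markers, 3 were above background on every array, with sums of 152.3 and 162.0 in wild-type and 123.2 to 153.7 in null cells. These were Gfap (26.1 to 39.3), Mbp (36.4 to 59.0) and Mag (19.5 to 45.6), while Mog, Aqp4 and S100b, also defining genes of oligodendrocytes or astrocytes, were at background throughout. Of the markers on the array, 4 of 7 of primitive endoderm and 3 of 4 of epiblast and primitive streak were above background on every array. The share of 67.8% over all genes stands beside these counts and that of the glial markers.

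The neuroectoderm is the part of the embryonic ectoderm that forms the brain and spinal cord. Transcription factors such as Sox3 and Pou3f1 are active in the epiblast and early neural plate, regional factors such as Pax6, Six3, En1 and Dlx1 then divide the tissue, and proneural factors such as Neurog1 and Neurod1 drive the exit of progenitors into neurons. Neurons finally make proteins of the axon, the growth cone and the synapse. In embryonic stem cells and non-neuronal tissues many neuronal genes are held down by the repressor REST, which works with the corepressor Rcor1 and with histone deacetylases.

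Of the 31 genes, 18 were at background on at least 1 of the 6 arrays. Background on an array is here the highest signal among 19 control probe sets for bacterial and yeast RNA, which lay between 9.1 and 17.2. By the brightest probe set of each gene, 13 of 31 genes (41.9%) were above background on all 6 arrays, 9 (29.0%) on none, and 9 on some. Over all 8251 genes these shares were 67.8%, 16.1% and 16.1%. The 13 genes were Nes, Sox3, Pou3f1, Gbx2, En2, Tubb3, Stmn2, Stmn3, Mapt, Nefl, Ncam1, Cdh2 and Gap43. Neurog1, Map2, Zic1, Six3, Fabp7, Dlx1, Dlx2, Syp and Snap25 were on no array above background. A signal at background gives an upper limit only, so these genes may have been off or too weak to be seen. Signals of different probe sets depend on their probes and do not rank the genes.

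**Figure D1:**
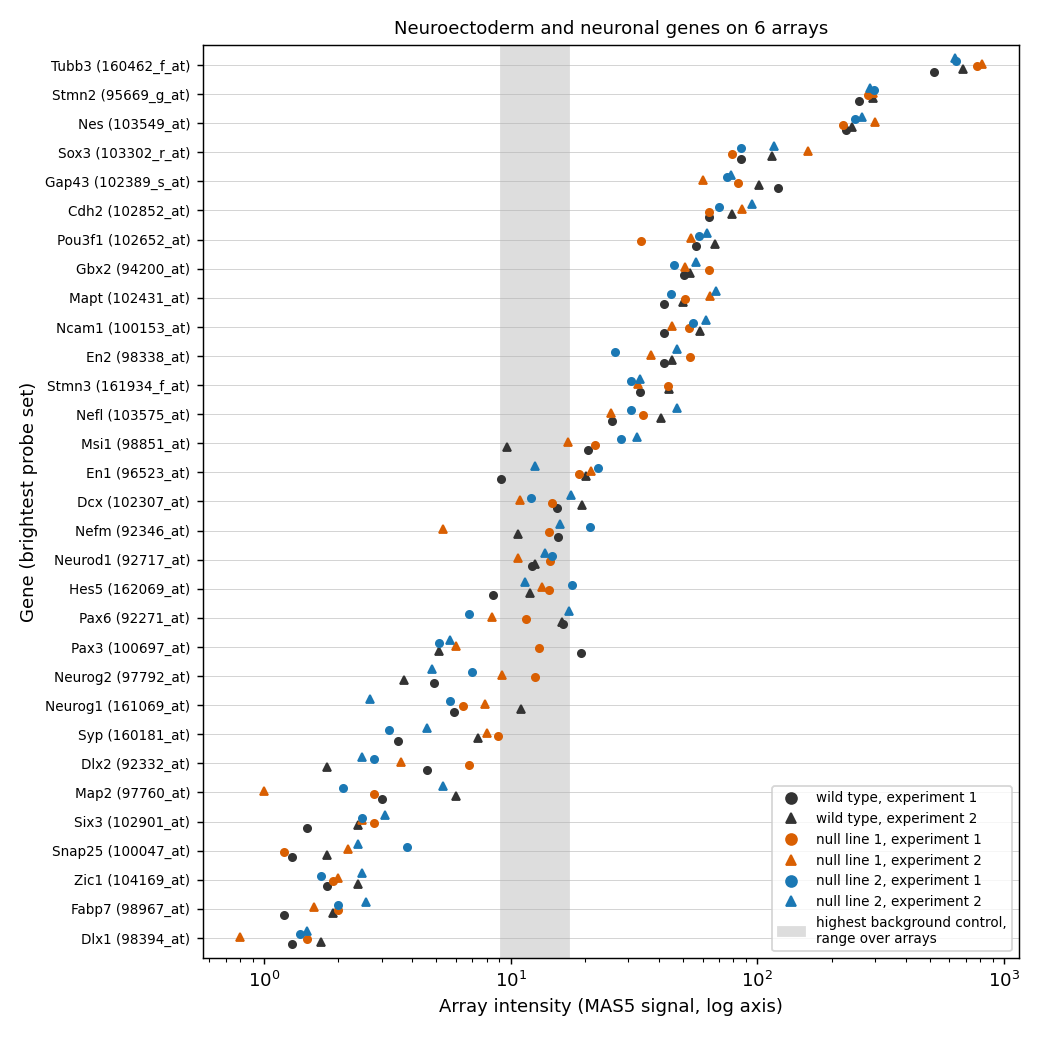
Array intensity (log axis) of the brightest probe set of each of 31 genes, with 1 point per array, coloured by line and shaped by experiment. The grey band spans the highest background control of the 6 arrays, from 9.1 to 17.2, and 13 genes lie above background on every array while 9 never do.

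The set of genes above background was nearly the same in wild-type cells and in line 2, and larger in line 1. Both arrays were above background for 14 genes in wild-type cells, 19 in line 1 and 14 in line 2. Dcx, a microtubule-binding protein of migrating neurons, was the additional gene in wild-type cells (15.4 and 19.4), and Msi1, an RNA-binding protein of neural progenitors, was the additional gene in line 2 (28.1 and 32.4). In line 1 the additional genes were Dcx, Msi1, Neurod1, Neurog2, Hes5 and En1, with values from 9.2 to 22.0. The highest control, against which an array is read, was 12.0 and 9.1 on the arrays of line 1, against 9.2 and 17.2 in wild type and 12.5 and 16.8 in line 2. Across all genes the share with both arrays above background was likewise highest in line 1, at 75.0%, against 72.1% in wild type and 70.5% in line 2. Hes5 is a Notch effector that keeps progenitors undifferentiated. Its probe set 162069_at was at background in wild-type cells (8.5 and 12.0) and above it in line 1 (14.3 and 13.4). Its other probe set, 161051_at, was at background on all arrays. For 162069_at the ratio to background was 1.1, the geometric mean of the bright arrays over that of the highest control of each dim array. This is no firm lower limit, since both line 1 signals lay under the highest control of 1 wild-type array (17.2). A limma fit over all probe sets gave 1.31-fold in line 1 (adjusted p = 0.794). The interval of this fit, 0.851-fold to 2.01-fold, includes no change. Neurog2, a proneural factor, was likewise at background in wild type (4.9 and 3.7) and above it in line 1 (12.6 and 9.2). Its ratio to background was 0.86, since its signals in line 1 were on average below the wild-type controls, so no lower limit can be given. The limma fit over all probe sets gave 2.04-fold in line 1 (adjusted p = 0.538). The interval, 1.37-fold to 3.03-fold, lies above no change before adjustment, but the gene did not pass.

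The promoters of genes above and at background are shown for 2 genes of each kind, to set their CpG content side by side, since H1 is a component of chromatin and CpG is the site of DNA methylation. The stretches are the 200 bases before the transcription start in RefSeq on GRCm38.p6, read in the direction of the gene. CpG dinucleotides are in capitals. Tubb3 (chr8:123411353-123411552, plus strand) and Nes (chr3:87970893-87971092, plus strand) were above background on all arrays. Dlx2 (chr2:71546755-71546954, minus strand) and Fabp7 (chr10:57784723-57784922, plus strand) were at background on all arrays.
Tubb3: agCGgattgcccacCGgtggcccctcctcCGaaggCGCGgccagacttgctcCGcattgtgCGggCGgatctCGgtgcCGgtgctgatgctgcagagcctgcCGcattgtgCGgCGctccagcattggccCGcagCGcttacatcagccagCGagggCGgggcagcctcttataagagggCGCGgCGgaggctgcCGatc
Nes: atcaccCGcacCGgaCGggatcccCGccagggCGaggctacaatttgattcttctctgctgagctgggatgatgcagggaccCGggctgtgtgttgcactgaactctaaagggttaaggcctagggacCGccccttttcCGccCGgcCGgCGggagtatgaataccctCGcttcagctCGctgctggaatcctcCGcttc
Dlx2: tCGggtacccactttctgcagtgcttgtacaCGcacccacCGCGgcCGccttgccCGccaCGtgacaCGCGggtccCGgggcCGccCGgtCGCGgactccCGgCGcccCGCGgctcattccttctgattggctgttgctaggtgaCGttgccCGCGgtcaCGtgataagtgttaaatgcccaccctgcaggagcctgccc
Fabp7: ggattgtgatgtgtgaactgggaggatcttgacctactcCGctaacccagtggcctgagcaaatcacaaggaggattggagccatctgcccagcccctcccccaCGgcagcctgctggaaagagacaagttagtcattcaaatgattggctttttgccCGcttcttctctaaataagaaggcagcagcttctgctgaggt

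These stretches hold 21, 14, 22 and 3 CpG in the order printed, so a dense and a sparse promoter both occur among genes at background. RefSeq promoters were matched for 18 of the 31 genes, 20 promoters in all. In the 250 bases before the start they held between 3 and 34 CpG with a median of 16.5, against a median of 14 over the 8413 promoters of genes on the array. The median was 16.5 over 4 promoters of genes above background on all arrays and 23 over 8 promoters of genes above background on none. The few CpG-poor promoters were those of Stmn3 and Dcx, each with 3, and Fabp7 with 4. Of these genes Stmn3 was above background on all arrays, Dcx on 5 and Fabp7 on none, so sparse promoters also occur among genes above background. On both strands 6 motifs were searched: the TATA box as TATAAA, the CCAAT box by those letters, the Sp1 motif as GGGCGG, the E-box as CANNTG, and parts of the element bound by REST as TCAGCACC or GGACAGC. Of the 20 promoters, CCAAT was in 10 (34.6% of the promoters of genes on the array), GGGCGG in 10 (52.8%), CANNTG in 9 (59.1%) and TATAAA in 2 (8.94%). TCAGCACC was found in 1 of the 20 promoters, that of Tubb3, on the opposite strand with its first base 121 bases before the start, and in 1.34% of the promoters of genes on the array. GGACAGC was found in that of Map2 and in 5.86% of the promoters of genes on the array. A match is a stretch of letters and does not show binding.

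No gene of the set passed the test for a change in the null cells. Signals were tested with limma as log2(intensity + 2), among 7453 probe sets whose mean over all arrays was at least 20.9. This included 19 probe sets of 14 genes of the set: the 13 above background on all arrays, and Msi1. Msi1 passed the filter only through line 2, where it was high, so counts are also given without it. None of the 19 passed adjusted p 0.05 with limma in the average of the null lines, in line 1, in line 2 or between the null lines. Over all probe sets tested, 0.416%, 0.134%, 0.255% and 0.0268% passed in these comparisons. No other tool was run. At an unadjusted p under 0.05 in the null average there were 2 higher probe sets (5.53% of all), the dimmer one of Tubb3 and that of Msi1, and 1 lower (7.16% of all), that of Gap43, or 3 of 19 against 12.7%. Without Msi1 this was 1 higher and 1 lower of 18. In line 1 there were 3 higher and 1 lower, against 3.97% and 5.51% of all, 9.49% together. In line 2 there were 2 higher and 1 lower, against 6.2% and 7.9%, 14.1% together, and without Msi1 1 and 1 of 18. Between the null lines 2 were higher in line 1 and 0 lower, against 4.01% and 3.54%, 7.55% together.

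Of the 19 probe sets 15 had a positive change in the null average, against 47.3% of all probe sets tested. In line 1 there were 14 (47.4% of all), in line 2 13 (48.2%), and between the null lines 10 (48.8%). In the null average their median log2 change was 0.08, and that of all probe sets was -0.01. Without Msi1, 14 of 18 were positive, with a median of 0.08. By the brightest probe set, 10 of 14 genes had a positive change and 4 a negative one, or 9 of 13 without Msi1. The 95% intervals of 13 of the 14 genes lay within a 2-fold change in either direction, between 0.513-fold and 1.79-fold, and that of Msi1 reached 2.55-fold. Over the 19 probe sets 17 lay within it, and 102743_at of Mapt, which is not its brightest, reached 2.33-fold. All fold values are on the log2(intensity + 2) scale, which understates changes of dim genes.

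**Figure D2:**
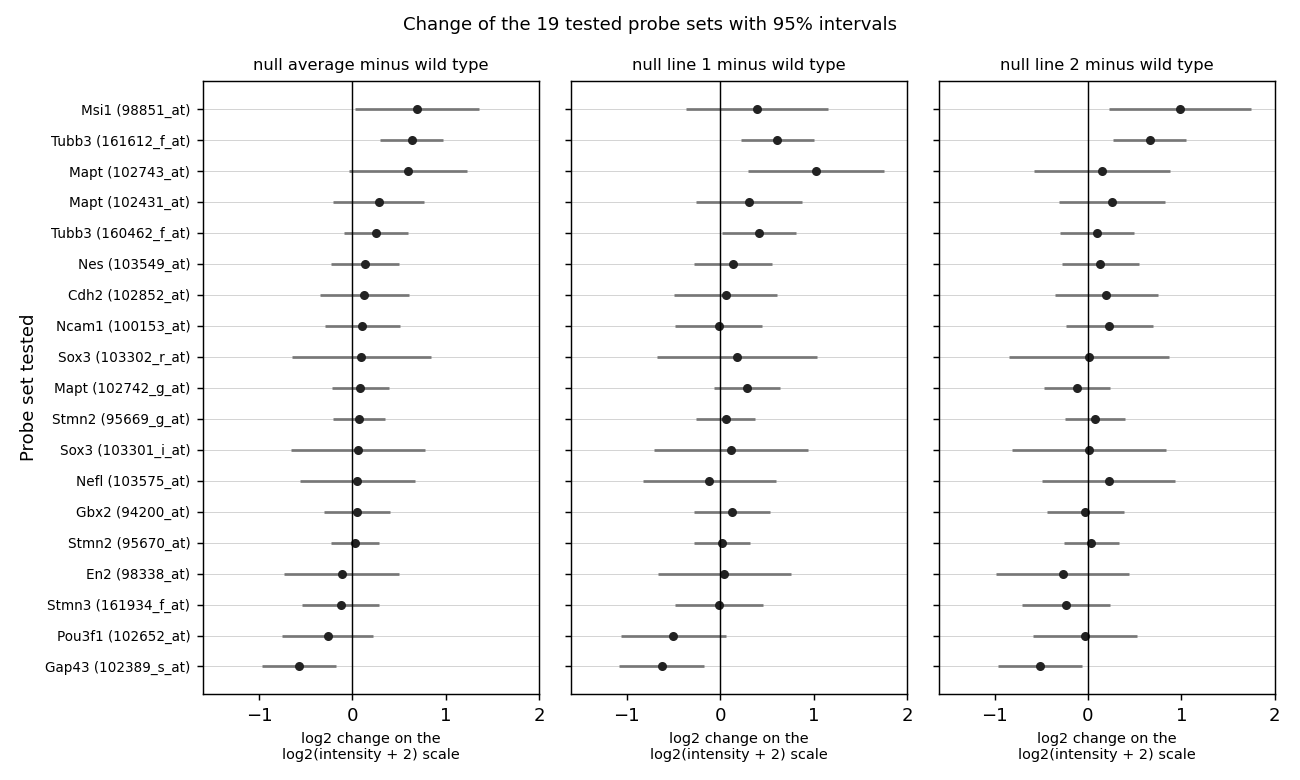
Log2 change (x axis, log2(intensity + 2) scale) of the 19 tested probe sets in the average of the null lines, in line 1 and in line 2 against wild type, with bars for the 95% interval of the model. Most intervals include 0, and in the null average those of Gap43, Msi1 and the Tubb3 probe set 161612_f_at do not, before adjustment over all probe sets, and Msi1 entered only through its signals in line 2.

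Among the progenitor genes, Nes, an intermediate filament protein of neural progenitors, read 228.3 and 241.6 in wild-type cells, 222.3 and 299.2 in line 1, and 249.2 and 266.9 in line 2. The groups overlapped, and the change was 0.13 ± 0.15 (SE, limma adjusted p = 0.762), with an interval of 0.854-fold to 1.41-fold. Its other probe set, 161829_at, was at background on all arrays. Msi1 read 20.6 and 9.7 in wild-type cells, 22.0 and 17.1 in line 1, and 28.1 and 32.4 in line 2. Line 2 lay above both wild-type arrays, whereas line 1 overlapped them, and 1 wild-type array was at background. The line means were 15.2, 19.6 and 30.3, and those of wild type and line 1 lay under the filter of 20.9, so that the gene was tested only because line 2 was high. The log2 differences are therefore a description: 0.69 in the null average, 0.40 in line 1 and 0.98 in line 2. The first was 0.22 without wild-type replicate 2, the array at background, and 1.17 without wild-type replicate 1. Fabp7, the fatty acid binding protein of radial glia, stayed between 1.2 and 2.6.

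Of the factors of the epiblast and early neural plate, Sox3, a SOX factor of neural progenitors, varied more between arrays of a line than between lines. Its brightest probe set, 103302_r_at, read 86.0 and 114.7 in wild-type cells, 79.0 and 160.8 in line 1, and 85.6 and 116.5 in line 2, and 103301_i_at followed it with 40.5, 56.6, 36.0, 75.1, 46.9 and 49.7 in the same order. The changes were 0.09 ± 0.31 and 0.06 ± 0.29 (SE, limma adjusted p = 0.934 and 0.956), and both turn negative without the experiment 2 array of line 1 (-0.16 and -0.19) or without wild-type replicate 1 (-0.11 and -0.17), as does the first without replicate 2 of line 2 (-0.01). The other 2 probe sets of Sox3, 161276_i_at and 92264_at, were at background. Pou3f1, a POU factor of the late epiblast and of glia, read 56.3 and 67.1 in wild-type cells, 33.9 and 54.1 in line 1, and 57.9 and 62.4 in line 2. Line 1 lay below both wild-type arrays and line 2 did not, with changes of -0.50 ± 0.23 and -0.03 ± 0.23 (SE, limma adjusted p = 0.55 and 0.968). The difference between the null lines, -0.47 ± 0.23, did not pass either (SE, limma adjusted p = 0.642). Gbx2, a homeobox factor of the anterior hindbrain that is also active in embryonic stem cells, read 50.5 and 53.5 in wild-type cells, 63.8 and 50.8 in line 1, and 45.9 and 56.3 in line 2 (0.05 ± 0.15, SE, limma adjusted p = 0.929). Zic1, a zinc finger factor of the dorsal neural tube, stayed between 1.7 and 2.5.

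Of 7 regional factors 3, and of 3 proneural factors 1, were at background on all arrays. En2, a homeobox factor of the midbrain and hindbrain, was the 1 of these factors above background on all arrays. It read 41.7 and 45.0 in wild-type cells, 53.6 and 37.2 in line 1, and 26.5 and 47.4 in line 2, with wide overlap (-0.11 ± 0.25, SE, limma adjusted p = 0.892). Six3, Dlx1 and Dlx2, factors of the forebrain, were above background on no array. Pax6, a factor of the eye and cortex, read 16.3 and 16.2 in wild-type cells, 11.5 and 8.4 in line 1, and 6.8 and 17.3 in line 2, and was above background on 2 arrays. Pax3, a factor of the dorsal neural tube and neural crest, read 19.2 and 5.1 in wild-type cells and 5.1 to 13.0 in null cells. En1 ranged from 9.1 to 22.6 over all arrays. Of the proneural factors, Neurod1 read 12.2 and 12.6 in wild-type and 10.7 to 14.7 in null cells, Neurog2 3.7 to 4.9 and 4.8 to 12.6, and Neurog1 was at background throughout. None of these 3 was bright enough to be tested.

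Tubb3, the beta-tubulin of neurons, gave different answers by probe set. Probe set 161612_f_at read 52.2 and 47.8 in wild-type cells, 80.4 and 74.5 in line 1, and 90.8 and 70.6 in line 2. All 4 null arrays lay above both wild-type arrays, with a change of 0.64 ± 0.14 (SE), 1.55-fold with an interval of 1.23-fold to 1.96-fold, and it did not pass (limma adjusted p = 0.169). The change was 0.61 in line 1 and 0.66 in line 2. The brighter probe set 160462_f_at read 519.1 and 683.9 in wild-type cells, 774.9 and 811.1 in line 1, and 639.0 and 632.3 in line 2. Line 2 overlapped wild type, and the change was 0.25 ± 0.14 (SE, limma adjusted p = 0.511). It was 0.05 without wild-type replicate 1 and 0.45 without wild-type replicate 2. The suffix _f marks probe sets whose probes match a family of similar sequences, so signal from other beta-tubulins cannot be told apart from that of Tubb3. Probe sets 161934_f_at of Stmn3 and 161750_f_at of Ncam1 carry the same suffix and the same limit.

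Of the 19 probe sets tested, 161612_f_at of Tubb3 had all null arrays above wild type and that of Gap43 all below, 2 without overlap, against 23.0% of all probe sets tested (11.0% above and 12.0% below). Gap43, a growth cone protein of extending axons, had lower signals on every null array than on either wild-type array. It read 120.8 and 101.5 in wild-type cells, 83.2 and 60.5 in line 1, and 75.6 and 78.4 in line 2. The change was -0.57 ± 0.16 in the null average (SE, limma adjusted p = 0.248), 0.673-fold with an interval of 0.513-fold to 0.884-fold. It was -0.63 in line 1 and -0.51 in line 2, and the lines differed by -0.11 ± 0.19 (SE, limma adjusted p = 0.893). Under 12 alternatives it ranged from -0.69 to -0.45 and never passed (limma adjusted p from 0.147 to 0.598). Summed signals of 12 fibroblast markers, which feeder cells would add, were 1402 and 1363 in wild-type and 1044 to 1221 in null cells. Among these markers, 5 were above background on all arrays and Fap was at background on all. Acta2, smooth muscle actin, carried the difference, with 608.8 and 512.5 in wild-type and 290.3 to 420.7 in null cells. Without it the sums were 792.8 and 850.3 in wild-type and 753.5 to 853.8 in null cells, which overlap. Their part in the value of Gap43 was not tested.

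**Figure D3:**
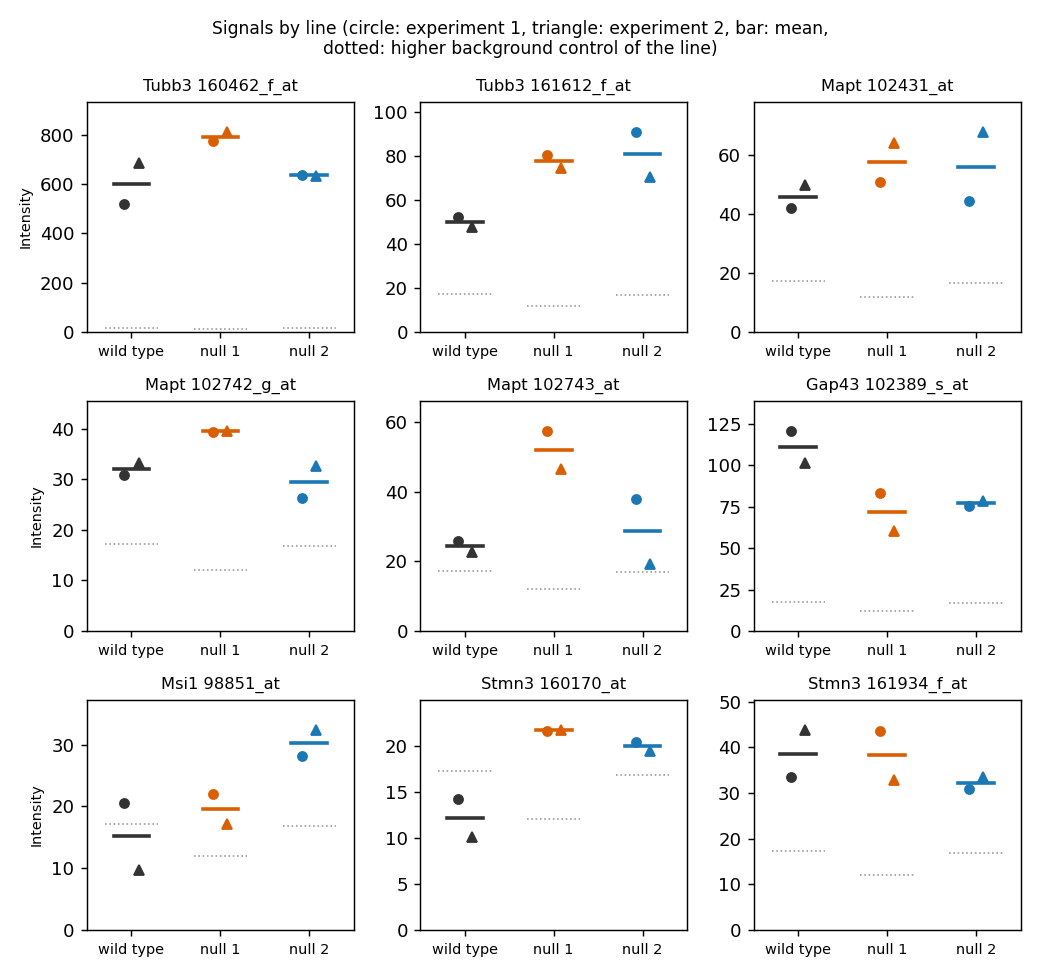
Intensity (y axis, linear from 0) of 9 probe sets by line, with circles for experiment 1, triangles for experiment 2, bars for the mean of 2 arrays and dotted lines for the higher background control of that line. All null arrays lie below wild type for Gap43 and above it for Tubb3 161612_f_at and Stmn3 160170_at, while other probe sets of Tubb3, and of Stmn3, overlap. Stmn3 160170_at lay under the filter and is not among the probe sets tested.

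Mapt, the microtubule-associated protein tau, also differed among its probe sets. Probe set 102743_at read 25.8 and 22.8 in wild-type cells, 57.4 and 46.4 in line 1, and 38.0 and 19.3 in line 2. Line 1 lay above wild type with a change of 1.03 ± 0.30 (SE, limma adjusted p = 0.361), while line 2 overlapped it with 0.15 ± 0.30 (SE, limma adjusted p = 0.866). The difference of the null lines was 0.88 ± 0.30 (SE, limma adjusted p = 0.627). The brightest probe set, 102431_at, read 42.0 and 50.0 in wild-type cells, 51.1 and 64.1 in line 1, and 44.5 and 67.9 in line 2 (0.28 ± 0.20, SE, limma adjusted p = 0.611). Probe set 102742_g_at, at 30.8 to 33.3 in wild-type and 26.3 to 39.6 in null cells, had a change of 0.08 ± 0.13 (SE, limma adjusted p = 0.832). In line 1 their changes were 0.31 ± 0.23 and 0.29 ± 0.15, positive as that of 102743_at was (SE, limma adjusted p = 0.706 and 0.589). The difference between probe sets was not tested.

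Stmn2, a microtubule-destabilising stathmin of growing axons, varied little between arrays. Probe set 95669_g_at read 258.4 and 295.8 in wild-type cells, 281.0 and 295.2 in line 1, and 297.6 and 286.0 in line 2, and 95670_at read 243.1, 246.8, 239.6, 258.5, 259.2 and 243.9. Their intervals in the null average were 0.866-fold to 1.27-fold and 0.853-fold to 1.22-fold (limma adjusted p = 0.846 and 0.942), and a change of 1.5-fold lies outside both. A further probe set, 95668_at, read 2.2 to 16.3 and was above background on 2 arrays, so the probe sets of Stmn2 disagree on whether it was measured at all. Its relative Stmn3 was measured by a probe set with overlap, 161934_f_at (33.4 and 43.8 in wild-type and 30.8 to 43.5 in null cells, -0.13 ± 0.17, SE, limma adjusted p = 0.807). The dimmer probe set 160170_at of Stmn3 read 14.2 and 10.1 in wild-type cells, 21.6 and 21.7 in line 1, and 20.4 and 19.4 in line 2. It was under the filter with a mean below 20.9. Without the filter its change was 0.70 ± 0.16 (SE, limma adjusted p = 0.376 over all probe sets), with 1 wild-type array at background.

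The remaining cytoskeleton and synapse genes were dim. Nefl, the light neurofilament subunit, read 25.7 and 40.7 in wild-type cells, 34.5 and 25.6 in line 1, and 30.8 and 47.1 in line 2 (0.05 ± 0.25, SE, limma adjusted p = 0.957). Nefm, the medium subunit, read 15.6 and 10.7 in wild-type and 5.3 to 21.0 in null cells, and Dcx 15.4 and 19.4 and 10.9 to 17.5. Map2, a dendritic microtubule-associated protein, stayed at 1.0 to 6.0. Syp and Snap25, proteins of the synaptic vesicle and of its fusion with the membrane, stayed at 3.2 to 8.9 and 1.2 to 3.8. Of the adhesion molecules, Cdh2, N-cadherin, read 63.9 and 79.2 in wild-type cells, 63.5 and 86.7 in line 1, and 70.0 and 95.4 in line 2 (0.13 ± 0.20, SE, limma adjusted p = 0.836). Ncam1, the neural cell adhesion molecule, read 41.9 and 58.5, 53.1 and 45.2, and 55.1 and 61.9 in the same order (0.11 ± 0.17, SE, limma adjusted p = 0.837). By these probe sets both overlapped between lines. Of the other probe sets of Ncam1, 100152_at was at background on all arrays. Probe set 161750_f_at read 20.5 and 12.3 in wild-type cells, 17.3 and 11.2 in line 1, and 23.4 and 29.4 in line 2. It was under the filter, and line 2 lay above both wild-type arrays whereas line 1 overlapped them. Without the filter its change in line 2 was 0.65 ± 0.31 (SE, limma adjusted p = 0.601 over all probe sets).

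Several of these genes differed between the arrays of a line in the same direction. In 7 of the 19 probe sets the experiment 2 array was above the experiment 1 array in wild type, line 1 and line 2 alike, against 14.6% of all probe sets tested. These were the 2 of Sox3 and those of Nes, Cdh2, Pou3f1 and Mapt (102431_at and 102742_g_at). In 2, 161612_f_at of Tubb3 and 102743_at of Mapt, it was below in all 3 lines, against 14.0% of all. Experiment 2 exceeded experiment 1 by 0.30, 0.44 and 0.44 for Cdh2 in wild type, line 1 and line 2 on the log2 scale, and by 0.41, 1.01 and 0.44 for Sox3 103302_r_at. The counts were made after the values had been seen, and the 2 probe sets of Sox3 and of Mapt measure the same RNA. The difference was not tested. The highest background control was also higher in experiment 2 in wild type (9.2 and 17.2) and line 2 (12.5 and 16.8), and lower in line 1 (12.0 and 9.1).

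**Figure D4:**
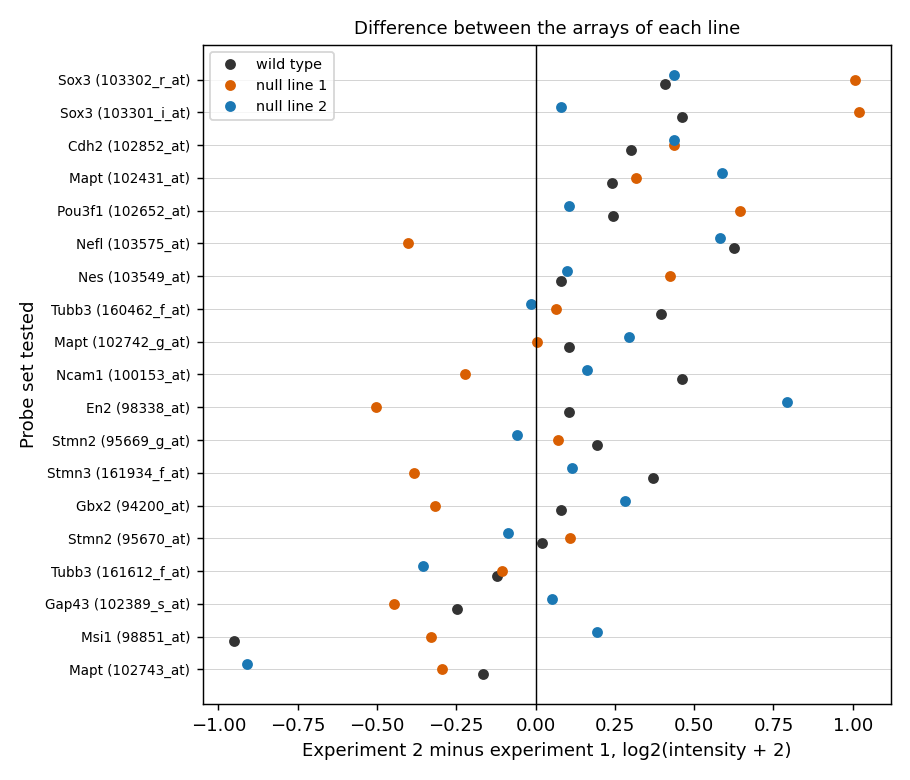
Difference between the experiment 2 and the experiment 1 array of each line (x axis, log2(intensity + 2)) for the 19 tested probe sets, with 1 point per line. For 7 probe sets, both of Sox3 and that of Cdh2 included, the 3 points lie above 0, and for 2 they lie below.

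Other genes of neural development were read from 5 lists, and in none of these did a gene pass in the null average, in line 1, in line 2 or between the null lines by the limma adjusted p. At an unadjusted p under 0.05 in the null average there were 1 of 11 transcription factors, 3 of 16 Notch genes, 3 of 20 cytoskeleton genes, 1 of 6 synapse genes and 0 of 10 of REST and its partners, against 12.7% of all probe sets tested. Of 35 neural transcription factors listed, 21 were on the array and 11 were tested, 6 with positive and 5 with negative changes in the null average and a median of 0.01. Irx3, 1 of the 6, read 25.2 and 13.2 in wild-type cells, 25.0 and 16.1 in line 1, and 29.0 and 34.6 in line 2. Like Msi1 it was tested only because line 2 was high, so its sign is no result. Zic2, also 1 of the 6, read 33.2 and 9.4 in wild-type cells, 18.3 and 13.6 in line 1, and 25.9 and 29.7 in line 2. Without line 2 its mean lay under the filter, so its sign is no result either. The smallest p belonged to Gli3, a transcription factor of Hedgehog signalling, which read 59.5 and 54.9 in wild-type cells, 38.7 and 37.0 in line 1, and 38.8 and 45.5 in line 2 (-0.50 ± 0.12, SE, limma adjusted p = 0.19). Its relative Gli2 had a change of -0.23 and Pax5 one of 0.53 (limma adjusted p = 0.464 and 0.442). Of 16 Notch pathway genes tested, 9 had positive and 7 negative changes, with a median of 0.02. Jag2, 1 of the 9, read 21.8 and 20.6 in wild-type cells, 29.1 and 44.2 in line 1, and 12.9 and 27.4 in line 2. Without line 1 its mean lay under the filter, so the sign of Jag2 is no result. The receptor Notch2 read 45.5 and 46.9 in wild-type and 25.4 to 37.4 in null cells (-0.48 ± 0.14, SE, limma adjusted p = 0.272). The protease Adam10, which cleaves Notch, read 70.7 and 72.3 and 43.6 to 57.6 (-0.50 ± 0.14, SE, limma adjusted p = 0.243). Mfng, a glycosyltransferase that modifies Notch, read 37.3 and 38.6 and 45.8 to 52.0 (0.36 ± 0.11, SE, limma adjusted p = 0.278).

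Of 20 further genes of the neuronal cytoskeleton and growth cone, 11 had positive and 9 negative changes, with a median of 0.05. Kif5a, 1 of the 11, read 20.2 and 14.9 in wild-type and 19.3 to 32.1 in null cells. Its wild-type mean lay under the filter, so it was tested only because null cells were high, and its sign is no result. Crmp1, a cytosolic phosphoprotein of growing axons, read 115.9 and 123.9 in wild-type cells, 137.2 and 164.1 in line 1, and 187.4 and 198.1 in line 2 (0.50 ± 0.12, SE, limma adjusted p = 0.195). Prph, an intermediate filament of peripheral neurons, and Kif1a, an axonal motor, had changes of 0.41 and -0.33 (limma adjusted p = 0.374 and 0.302). Only 6 of 21 synapse and transmitter genes on the array were bright enough to be tested, 2 with positive and 4 with negative changes. Rab3a, a GTPase of synaptic vesicles, read 124.6 and 88.4 in wild-type cells, 45.9 and 59.5 in line 1, and 90.9 and 96.6 in line 2. Its change was -0.98 in line 1 and -0.16 in line 2 (limma adjusted p = 0.256 and 0.783). Syn2 and Cplx2, of the same list, had changes of -0.34 and -0.20 in the null average (limma adjusted p = 0.631 and 0.713).

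Of REST and its partners, 10 were on the array, and all 10 were above background on every array, against 67.8% of all genes. Their median change was -0.05, with 4 positive and 6 negative. REST itself varied within lines: Rest read 143.6 and 102.3 in wild-type cells, 59.2 and 118.1 in line 1, and 55.1 and 144.6 in line 2 (-0.48 ± 0.44, SE, limma adjusted p = 0.697). In both null lines the experiment 1 array was below both wild-type arrays and the experiment 2 array was not. Rcor1 ranged from 72.7 to 100.4 over all arrays. The deacetylase Hdac1 read 471.4 and 412.6 in wild-type and 446.6 to 575.1 in null cells (0.21 ± 0.12, SE, limma adjusted p = 0.513), and the remodeller Smarca4 509.7 and 562.5 and 436.2 to 508.1 (-0.17 ± 0.11, SE, limma adjusted p = 0.566). In bulk samples fewer cells that express a gene and less of its RNA per cell cannot be told apart, for these genes as for the others.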

How the data were processed

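Signals were measured on 6 arrays, 2 of wild-type cells and 2 of each of 2 null lines. The deposited values are intensities on a linear scale (MAS5 is named in the submitters' processing notes), already scaled to a common level, as the trimmed means of the arrays (2% left out at each end) show. Detection calls were not used here. Gene names came from the platform annotation, and a RefSeq gene table (GRCm38.p6) gave current symbols for 10817 of 10833 probe sets listed with 1 gene. Tests left out 66 control probe sets. Members, gene lists and motifs were chosen with earlier results of these data known.

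Values were tested as log2(intensity + 2) with limma 3.58.1 in R 4.3.3, with a mean per line over all 6 arrays (3 residual and 3.17 prior degrees of freedom). Probe sets entered if their mean was at or above the 40th percentile. P-values were adjusted by Benjamini-Hochberg over the 7453 probe sets tested, at a threshold of 0.05, and intervals are the model's 95% intervals. Groups of 2 arrays limit the precision. Named genes are all members, and up to 3 genes with the smallest p of each neural list. Rcor1, Irx3, Zic2, Jag2, Kif5a and the cell type markers were named after their values were seen. The brightest probe set stands for a gene in counts. On simulated data with 7453 probe sets, of which 200 were changed, limma called 65.3% of those changed 2-fold and 92.1% of those changed 4-fold in the null average, and 4.54% of its calls were false. The planted changes were equal in both null lines, and the lines did not differ otherwise. Noise was normal, with spreads reassigned at random among probe sets whatever their signal. These shares therefore need not hold for the real arrays or for dim genes. Alternatives were another pseudocount, no filter, quantile normalization, a spread that follows the signal, the replicate block, the null arrays as a single group, leaving out each array and, for background, the median control or any probe set of a gene. Figures were drawn with matplotlib 3.10.9.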

Additional observations from a re-analysis of the deposited data

How the results depend on the processing

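No probe set of the neuroectoderm and neuronal genes passed in any comparison under any alternative run. In the null average, 10 of the 19 probe sets kept the sign of their change in all 12 alternatives, and 9 changed it in at least 1, 16 times in 228, always when an array was left out. The number of calls over all probe sets moved more. In the null average it was 31, and 54 with a pseudocount of 16, 8 without the filter, 111 with a spread that follows the signal, 14 with the replicate block, and 7 to 13 with an array left out. In line 1 it was 10, and 5 without the filter, 49 with a spread that follows the signal and 4 to 9 with an array left out. In line 2 it was 19, and 31 with a pseudocount of 16, 5 without the filter, 103 with a spread that follows the signal and 0 to 10 with an array left out. Between the null lines it was 2, and 1 with a pseudocount of 16 or quantile normalization, and 0 without the filter, with the replicate block or with an array left out. Against the median in place of the highest control, 24, 25 and 22 members were above background on both arrays in wild type, line 1 and line 2, in place of 14, 19 and 14. Against the highest control, counts by any probe set of a gene were also 14, 19 and 14. The cause of these shifts was not tested. The labels give no meaning to experiments 1 and 2. Whether arrays of the same number share a culture, day or batch is not stated and was not tested. The differences between the 2 experiments correlated between lines with r of 0.053 to 0.095 over probe sets. The replicate block changed no call of a member. Of 46 probe sets, 27 were too dim to be tested. For a gene at background in all lines, a fall, or a change within background, would not be seen.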
